A study of Homo sapiens with 4 samples.

Results

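The genes examined here encode 10 inflammatory cytokines and chemokines, namely IL6, CXCL8, CXCL1, CXCL2, CXCL3, LIF, IL11, IL1A, IL1B and CCL2, of 19962 protein-coding genes in all. They were chosen by name, with earlier results of these data known. For each gene, peaks of acetylated lysine 27 of histone H3 (H3K27ac) were collected within 1 kb of the canonical start site, which is called its promoter, and within 100 kb of the gene body, which is called its locus. CXCL8, CXCL1, CXCL3 and CXCL2 lie together on chromosome 4 and were treated as 1 locus, and IL1A and IL1B, whose windows overlap on chromosome 2, as another. This left 6 loci.

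H3K27ac was profiled by chromatin immunoprecipitation and sequencing (ChIP-seq) in MDA-MB-231 and Hs578T, both established triple-negative breast cancer cell lines. Cells of all 4 libraries, 2 per line, were starved for 8 h, received 10 ng/ml TWEAK for 48 h and, per the labels, then had it washed out for 72 h. TWEAK is a cytokine of the tumour necrosis factor family that binds the receptor Fn14. Neither untreated cells nor cells still under TWEAK were analysed here. The values therefore describe the state after washout, with no comparison to the state before it.

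The mark H3K27ac is found at active promoters and enhancers. NF-κB and AP-1 are transcription factors that bind the promoters and enhancers of many inflammatory genes, and IL-1 in turn activates them, so that secreted ligands can maintain each other's transcription. IL-6, LIF and IL-11 signal through the shared receptor subunit gp130, the CXC chemokines examined attract neutrophils, and CCL2 attracts monocytes. Many breast cancer cells with mesenchymal features secrete IL-6 and CXCL8.

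The promoter sequences of the chemokine genes and of IL6 are shown first because they share short elements near the start site. Sequences are those of RefSeq on GRCh38.p14, in which 8 of the 10 genes were matched by symbol, each with a start at 0 bp from the canonical one. LIF and CCL2 had no entry. The RefSeq window of 300 bases, 250 before and 50 after the start, was searched for motifs. Each stretch shown holds the 250 bases before the start site on the strand of the gene, and capitals mark matches to NF-κB or AP-1 motifs.
CXCL1 promoter, chr4:73869143-73869392, plus strand: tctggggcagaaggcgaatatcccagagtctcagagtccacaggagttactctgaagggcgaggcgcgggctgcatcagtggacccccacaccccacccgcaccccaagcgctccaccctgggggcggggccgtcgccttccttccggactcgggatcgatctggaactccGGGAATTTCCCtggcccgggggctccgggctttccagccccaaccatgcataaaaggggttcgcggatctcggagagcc
CXCL3 promoter, chr4:74038690-74038939, minus strand: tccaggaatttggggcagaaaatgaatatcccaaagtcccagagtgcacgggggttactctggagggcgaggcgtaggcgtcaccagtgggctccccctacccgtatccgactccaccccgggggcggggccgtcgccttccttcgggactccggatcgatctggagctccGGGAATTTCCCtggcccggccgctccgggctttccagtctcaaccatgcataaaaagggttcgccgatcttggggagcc
CXCL2 promoter, chr4:74099196-74099445, minus strand: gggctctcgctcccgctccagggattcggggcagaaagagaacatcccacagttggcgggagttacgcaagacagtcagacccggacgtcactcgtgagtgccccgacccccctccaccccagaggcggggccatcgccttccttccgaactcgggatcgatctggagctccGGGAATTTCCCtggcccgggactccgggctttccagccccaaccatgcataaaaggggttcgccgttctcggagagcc
CXCL8 promoter, chr4:73740319-73740568, plus strand: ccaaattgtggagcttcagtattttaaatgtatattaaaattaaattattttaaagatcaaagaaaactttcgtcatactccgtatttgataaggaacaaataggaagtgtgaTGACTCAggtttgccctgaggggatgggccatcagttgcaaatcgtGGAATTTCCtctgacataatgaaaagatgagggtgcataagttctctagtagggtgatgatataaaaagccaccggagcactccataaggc
IL6 promoter, chr7:22726950-22727199, plus strand: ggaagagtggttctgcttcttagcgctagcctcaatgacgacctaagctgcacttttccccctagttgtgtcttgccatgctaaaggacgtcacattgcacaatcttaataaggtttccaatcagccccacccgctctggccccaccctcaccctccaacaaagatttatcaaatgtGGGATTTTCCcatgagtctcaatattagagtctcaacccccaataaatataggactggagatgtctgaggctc

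All 3 promoters of CXCL1, CXCL3 and CXCL2, which encode the closely related GRO chemokines, held 2 overlapping matches to the NF-κB consensus. They began 79 bases before the start site of CXCL1 and CXCL3 and 78 bases before that of CXCL2. The CXCL1 and CXCL3 promoters were 82.5% identical over the aligned columns, CXCL2 and CXCL3 73.8%, and CXCL1 and CXCL2 69.1%, whereas CXCL8 was 40.9 to 41.6% identical to each of them. The IL6 promoter held 1 match, 73 to 64 bases before the start. CXCL8 held no match to the consensus but held the shorter element GGAATTTCC, which lies within the overlapping matches of the GRO genes, 91 to 83 bases before the start, and the AP-1 motif TGACTCA 137 to 131 bases before it.

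Across 15811 RefSeq promoters of the same 300 bases, 6.37% held an NF-κB match, 0.405% GGAATTTCC, 3.67% an AP-1 match (TGACTCA or TGAGTCA), 8.37% the C/EBP motif TTNNGCAA and 9.64% TATAAA, on either strand. The C/EBP motif was found in the promoters of IL6, CXCL2 and IL1B. IL1A held 2 AP-1 matches and IL11 1. TATAAA was found for CXCL8 and IL1A. These are matches of letters and not measured binding sites.

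Before turning to the genes, the size of the lists has to be considered. MDA-MB-231 replicate 1, as labelled, was a list of only 209 peaks and covered no base of any of the 6 loci. MDA-MB-231 replicate 2 held 43353 peaks, Hs578T replicate 1 held 46330 and Hs578T replicate 2 held 44920. Unless stated otherwise, values of these 3 large lists are given in this order below. Means of the 2 lists labelled MDA-MB-231 describe neither of them. No test between lines was made, and the line of each list is known here from the sample titles alone. The 4 lists can be divided into 2 pairs in 3 ways, which puts the smallest p-value of an exact permutation test (two-sided) at 0.333. VIM, CD44 and AXL, the mesenchymal markers, had promoter peaks in all 3 large lists. Of 6 luminal markers only ERBB2 did, at percentiles from 3.32 to 28.8 of fold enrichment, and none of the 5 immune markers did. The endothelial marker PECAM1 was marked in MDA-MB-231 replicate 2 (14.3-fold, 7148 bp) and a weak one in Hs578T replicate 1 (2.82-fold, 374 bp), whereas CDH5 and VWF had none.

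Most of the cytokine genes were marked at their promoters in the 3 large lists, where MDA-MB-231 is represented by replicate 2 alone. Of the 10 genes, MDA-MB-231 replicate 2 marked 9, with a peak within 1 kb of the start site. The number was 8 in Hs578T replicate 1 and 8 in Hs578T replicate 2. Among all protein-coding genes the shares were 58.1, 58.2 and 56.4%. MDA-MB-231 replicate 1 marked 0 of 10, against 0.0601% of all genes. The same 8 genes, or 80%, were marked in all 3 large lists, against 55.6% of all genes. IL1A was marked in 1 of the 3 large lists, as were 1.6% of all genes, while 3.69% were marked in 1 or 2 of them. CCL2 was marked in none. With 10 genes, chosen with earlier results of these data known, these shares are descriptions of this set.

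The strength of the peaks differed widely between the genes. Fold enrichment, the ratio of the ChIP signal over local background given by the authors, is relative to each library. Its size was therefore not compared between lists, and each peak was placed by its percentile among all peaks of its own list. The LIF promoter ranked highest, at percentiles 96.5, 94.4 and 94.5, followed by CXCL2 (92, 93.6 and 93.1) and IL6 (91.8, 85.4 and 83.3). CXCL8 lay at percentiles 59.7, 73.3 and 66.2 and CXCL3 at 63.7, 55 and 50.7, and these 2 genes changed places between the lists. IL1B (21.1, 33.5 and 41.7) and IL11 (35.1, 42 and 16.2) also overlapped. CXCL1 was lowest of the genes marked in all 3, at percentiles 14.2, 12.7 and 5.75. The order from LIF to CXCL2 to IL6 was the same in all 3 large lists, although CXCL2 and IL6 were next to each other in MDA-MB-231 replicate 2.

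**Figure D1:**
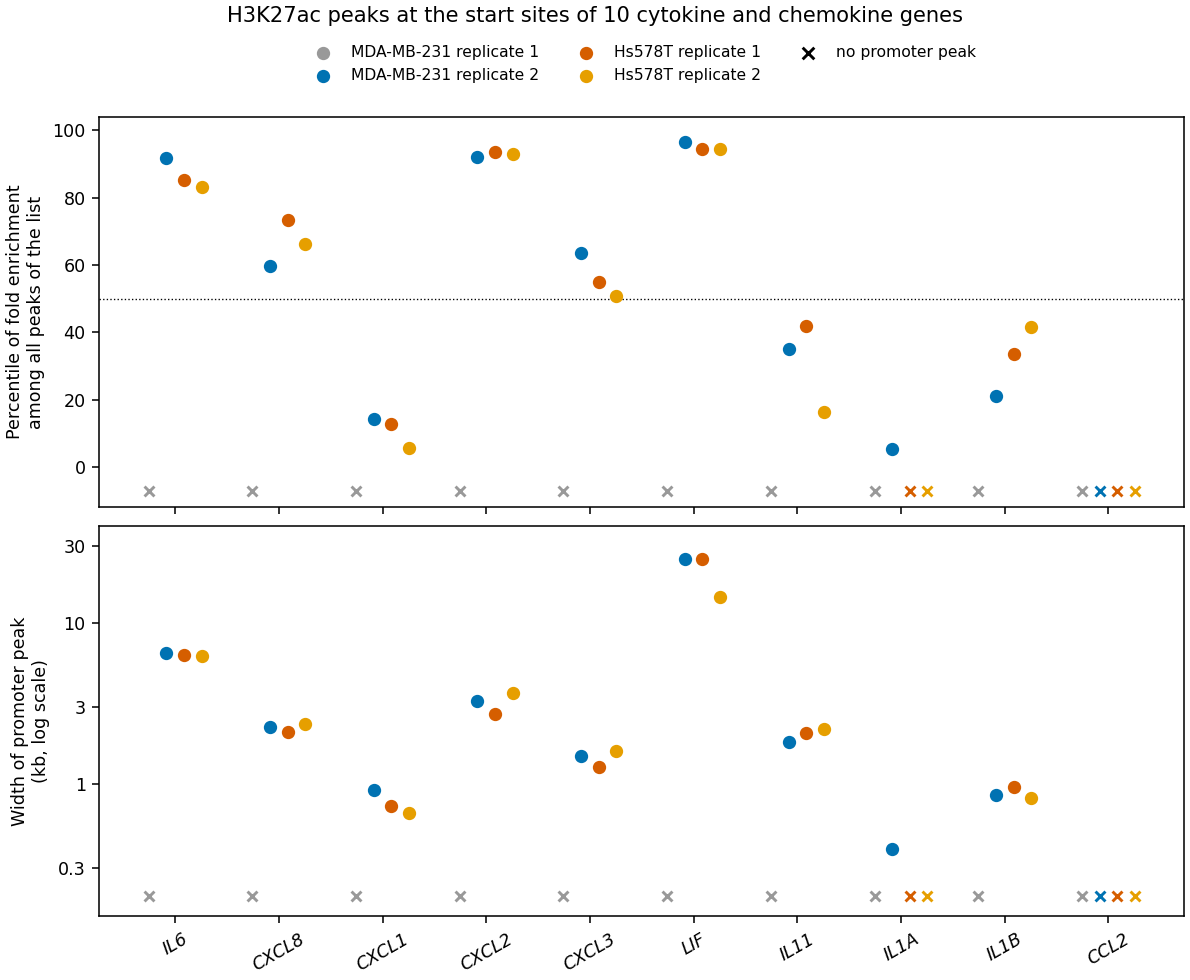
Promoter peaks of the 10 genes in the 4 lists. The upper panel gives the percentile of fold enrichment among all peaks of the list (dotted line, 50) and the lower panel the peak width in kb on a log scale. Each point is 1 list, and crosses mark genes without a promoter peak. LIF, CXCL2 and IL6 lie at or above percentile 83.3 in all 3 large lists, and MDA-MB-231 replicate 1 has a cross for every gene.

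The interleukin-6 family is represented by IL6, LIF and IL11. IL6 encodes the cytokine that activates STAT3 through the IL-6 receptor and gp130. Its start site at chr7:22727200 lay within a peak of 6491, 6344 and 6186 bp in the 3 large lists, with fold enrichments of 16.7, 12.3 and 9.94. The peak covered all 2001 bp of the promoter window in each and extended across the gene body. By width the peaks lay at percentiles 97.3, 96.6 and 96.9, so that IL6 was among the widest peaks of each list.

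Upstream of IL6, 2 further regions had fold enrichments at or above that of the promoter. The region at chr7:22716697-22719398, 7.8 kb upstream of the start, had 18.3, 17.2 and 16.1-fold enrichment (percentiles 93.7, 93.6 and 95.3), higher than the IL6 promoter peak in each of these lists. The region at chr7:22662272-22669393, 57.8 kb upstream, reached 17.5, 12.8 and 14.9-fold. Both lie within the body of STEAP1B, whose canonical start site at chr7:22500188 was unmarked in every list. The region over the IL6 start also overlaps the body of STEAP1B, and other start sites of STEAP1B were not examined. In all, 10 of 11 regions of the IL6 locus were called in all 3 large lists. On the downstream side of the gene the only regions lay 87.3 and 94.7 kb away, the latter at the promoter of TOMM7, a subunit of the mitochondrial import machinery.

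LIF encodes leukaemia inhibitory factor, a cytokine that signals through LIFR and gp130. Its start site at chr22:30246759 lay in a domain of 24925 bp in MDA-MB-231 replicate 2 and 24824 bp in Hs578T replicate 1. In Hs578T replicate 2 the same stretch was called as peaks of 9637 and 14484 bp, the latter over the start site. Fold enrichments of the peak over the start site were 21.6, 18.03 and 15.4. By width these were the peaks ranked 21, 32 and 130 of their lists.

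Stronger peaks lay downstream of LIF. The region at chr22:30201067-30215244, 31.5 kb downstream of the start site, had 50.6, 42.2 and 35-fold enrichment and ranked 4, 40 and 45 by fold enrichment among all peaks of the respective list. Beside it, chr22:30192950-30200234 had 40.1, 31.4 and 26.4-fold enrichment. Both overlap ENSG00000225676, which is not a protein-coding gene, and the stronger one lies within 1 kb of its canonical start site. Peaks covered 64641, 64749 and 62669 bp of the LIF locus, or 31.3, 31.4 and 30.4% of it. Of all protein-coding genes, 99.8, 99.5 and 99.7% had a lower covered share of the window of the same kind. OSM, the neighbouring gene for oncostatin M of the same cytokine family, had no promoter peak in any list, whereas CASTOR1, TBC1D10A and SF3A1 were marked in all 3 large lists.

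**Figure D2:**
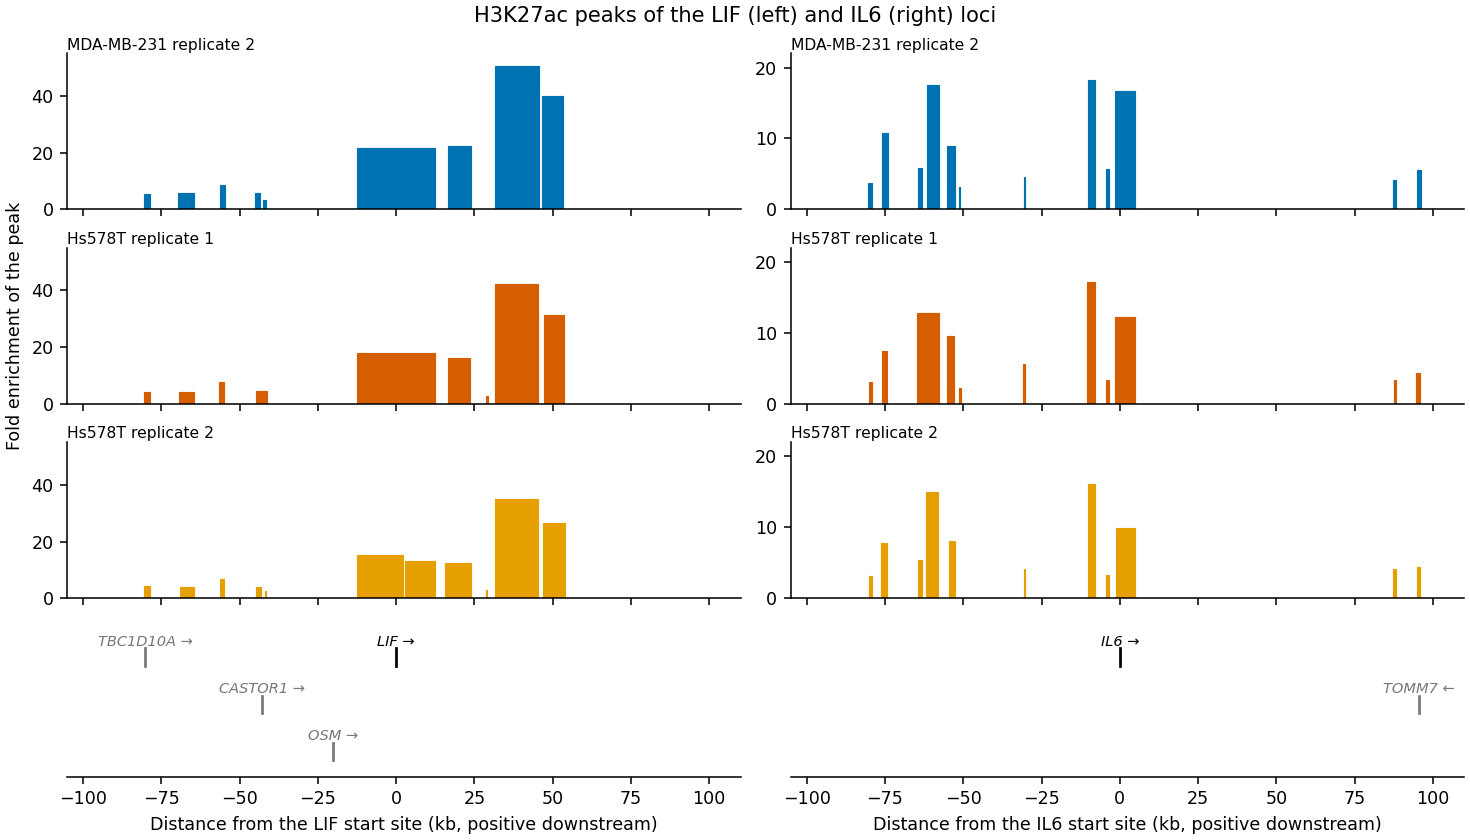
Peaks within 100 kb of LIF (left) and IL6 (right) in the 3 large lists. Bar width is the extent of the peak and bar height its fold enrichment, the horizontal axis gives the distance from the start site in kb with downstream positive, and ticks with arrows show start sites and direction of transcription (members in black). The tallest bars of the LIF locus lie 31.5 kb or more downstream of its start in all 3 lists, and those of IL6 lie at the start and upstream.

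IL11, whose product also signals through gp130, had a weak promoter peak of 1829, 2078 and 2202 bp at 4.32, 4.42 and 3.08-fold enrichment. A stronger region, chr19:55372227-55376595, lay 1.8 kb upstream of the IL11 start site with 6.90, 6.36 and 5.78-fold enrichment, and in Hs578T replicate 2 its peak reached the promoter window of TMEM190. The strongest peaks of the locus were those at the promoters of other genes. UBE2S, a ubiquitin-conjugating enzyme, had 19.3, 21.7 and 16.3-fold enrichment, and KMT5C, a histone methyltransferase, had 11.5, 10.8 and 9.72-fold. RPL28 and TMEM238 shared a peak of 10.3, 10.8 and 9.43-fold. All 9 regions of the IL11 locus were called in the 3 large lists, and peaks covered 19564, 28311 and 23031 bp. This was the widest difference between the large lists among the marked loci.

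The 4 chemokine genes of chromosome 4 were all marked in the 3 large lists, but unequally. CXCL8 encodes interleukin-8, and CXCL1, CXCL2 and CXCL3 encode ligands of the same receptor, CXCR2. CXCL2 had the strongest promoter peak, with 16.8, 17.2 and 14.2-fold enrichment over 3264, 2729 and 3651 bp. CXCL8 had 6.84, 8.61 and 6.54-fold over 2249, 2101 and 2348 bp, and CXCL3 had 7.47, 5.64 and 4.91-fold over 1482, 1275 and 1594 bp. The CXCL1 peak was weakest and narrowest in each list, with 3.20, 2.87 and 2.75-fold over 916, 723 and 661 bp. In Hs578T replicate 2 it lay upstream of the CXCL1 start site without reaching it, and its −log10 q-value was 1.45.

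The strongest peaks of the CXCL locus lay near CXCL2, at MTHFD2L and upstream of CXCL8. The locus spans 558678 bp and held 18, 22 and 22 peaks, which covered 38478, 38112 and 37383 bp, or 6.89, 6.82 and 6.69%. The strongest region was chr4:74107038-74114747, 7.8 kb upstream of CXCL2, with 27.7, 33.3 and 30.02-fold enrichment (percentiles 98.8, 99.6 and 99.7). The annotated body of MTHFD2L, which encodes a mitochondrial folate enzyme, begins within this region, while its canonical start lies farther away. The region at that canonical start, 57.1 kb from CXCL2, had 14.7, 16.9 and 12.9-fold enrichment. Other start sites of MTHFD2L were not examined. On the other side, chr4:73703406-73709110, 31.5 kb upstream of CXCL8, had 12.9, 17.3 and 14.7-fold enrichment, above the CXCL8 promoter in each large list. This region reaches to within 1 kb of the canonical start site of ENSG00000289530, which is not a protein-coding gene. In the Hs578T lists the peak at that start site was a separate one, with 6.92 and 7.43-fold enrichment. CXCL6, CXCL5, PPBP, PF4 and PF4V1, the other chemokine genes between CXCL8 and CXCL2, had no promoter peak in any list. Since CXCL1, CXCL2 and CXCL3 arose by duplication, the uniqueness of their start sites was checked. Of words of 50 bases within 1 kb of the start, 0% recurred on chromosome 4 for CXCL8, 1.59% for CXCL1, 6.92% for CXCL3 and 6.86% for CXCL2. How far reads from such words were assigned to a single copy was not tested.

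**Figure D3:**
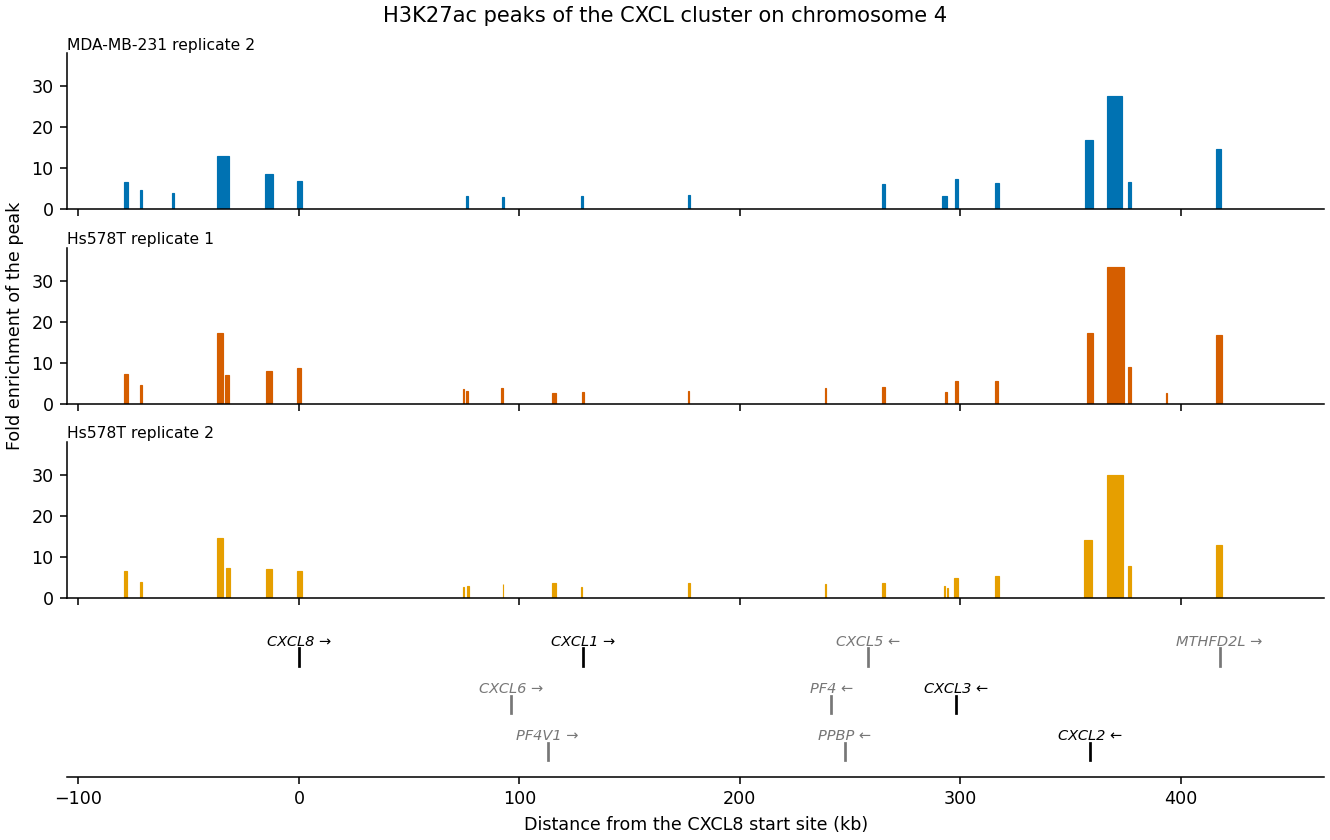
Peaks of the CXCL locus in the 3 large lists, drawn by distance from the CXCL8 start site in kb. Bar width is the extent of the peak and bar height its fold enrichment, and ticks with arrows give start sites and direction of transcription (members in black, other genes in grey). The tallest bar lies next to CXCL2 in all 3 lists, and the bars around CXCL6, CXCL1, PF4, PPBP and CXCL5 reach at most 6.09-fold.

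IL1A and IL1B encode interleukin-1 alpha and beta, which act through the same receptor. IL1B had a small promoter peak of 854, 959 and 815 bp with 3.51, 3.82 and 4.27-fold enrichment. IL1A was marked only in MDA-MB-231 replicate 2, by a peak of 396 bp with 2.83-fold enrichment and a −log10 q-value of 1.54, near the weakest of that list (percentile 5.47). In the Hs578T lists the nearest peak lay 8782 and 8861 bp from the IL1A start site. Whether the line or the calling threshold separates the lists here was not tested.

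Between IL1A and IL1B, in contrast, peaks were stronger than at either promoter. The region at chr2:112811049-112814320, 22.5 kb downstream of the IL1B start, had 21.3, 20.7 and 18.4-fold enrichment (percentiles 96.3, 96.4 and 97.1). Next to it, chr2:112803214-112805354 had 10.46, 13.3 and 11.6-fold and chr2:112793275-112795174, 8.8 kb upstream of IL1A, had 9.85, 8.69 and 7.84-fold. Neither overlapped an annotated gene. The CKAP2L promoter had 10.9, 11.1 and 8.48-fold enrichment, and IL37, another gene of the IL-1 family in the window, was unmarked. The IL1 locus held 19, 19 and 15 peaks over 27526, 26545 and 24327 bp, and 15 of its 22 regions were called in all 3 large lists, the lowest share of the marked loci (68.2%).

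CCL2 had no peak at its promoter or anywhere in its locus in any of the 4 lists. CCL2 encodes the monocyte chemoattractant MCP-1. No peak within 100 kb was found for 8.34, 8.12 and 8.28% of all genes in the respective large list, and for 7.5% in all of them together. The nearest peak lay 705682, 705635 and 705716 bp away. The stretch free of peaks in the 3 large lists ran from chr17:33285243 to chr17:34960919, over 1676 kb, and 7 protein-coding genes lay wholly within it, namely CCL2, CCL7, CCL11, CCL8, CCL13, CCL1 and TMEM132E. ASIC2 lay partly within it. Of 50553 gaps between regions, 137 were at least as long. MDA-MB-231 replicate 1 had no peak within 100 kb for 97.5% of genes, so its lack of a peak says little of CCL2.

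Over the 6 loci together, each large list held 71 peaks. They covered 174276, 182947 and 168681 bp of 1642013 bp, or 10.6, 11.1 and 10.3%. For comparison, the window of a median protein-coding gene was covered to 3.96, 4.37 and 4.002%, and the upper quartile over genes was 7.94, 8.77 and 7.98%. A pooled share and a median over genes are unlike measures, and LIF alone held 64641, 64749 and 62669 of the covered bp. For the lists labelled Hs578T the mean over the 6 loci was 175814 ± 10088 bp (SD, n = 2), and MDA-MB-231 replicate 2 lay within this spread. With replicate 1, which covered 0 bp of the loci, the mean for MDA-MB-231 was 87138 ± 123232 bp (SD, n = 2), and without it the value was 174276 bp. The means of the lines differed by less than the 2 lists of MDA-MB-231 did. Depth is unknown, and depth, the immunoprecipitation and the input of replicate 1 cannot be told apart here.

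**Figure D4:**
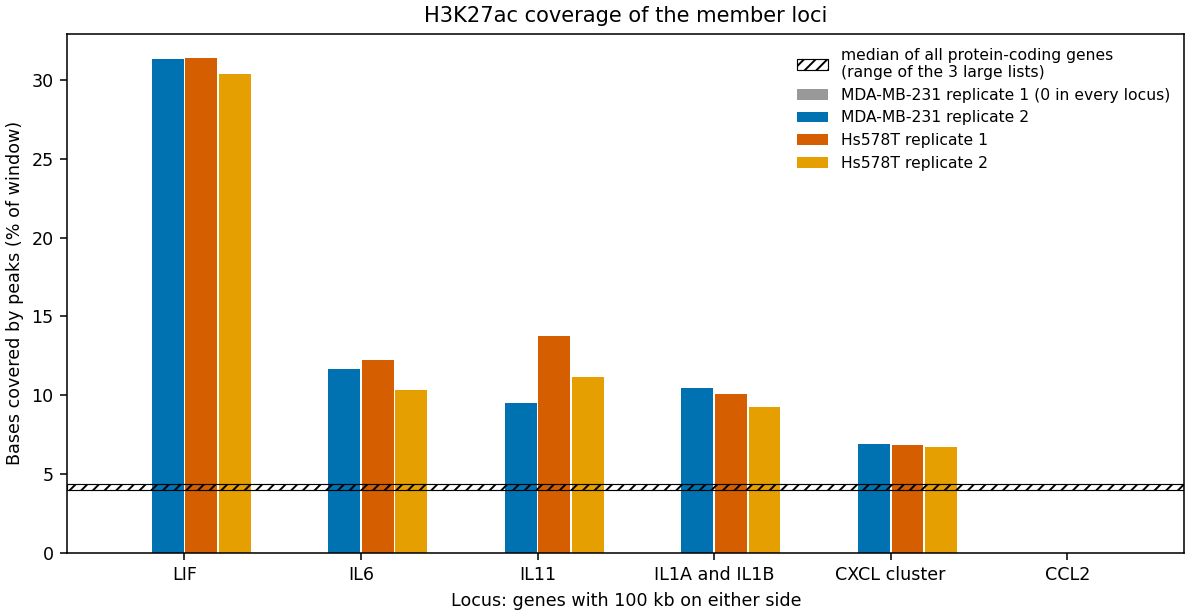
Share of each locus covered by peaks, in % of the window, for the 4 lists. Each bar is 1 list, and the hatched band is the range over the 3 large lists of the median over all protein-coding genes (3.96 to 4.37%). LIF is covered to between 30.4 and 31.4%, the other marked loci to between 6.69 and 13.7%, and CCL2 to 0.

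Merging the peaks of the 3 large lists gave 73 regions in the loci, and 59 of them, or 80.8%, were called in all 3. Among all merged regions of the genome this share was 74.8%. A further 4 regions were called only in MDA-MB-231 replicate 2, 4 only in both Hs578T lists, 4 only in Hs578T replicate 1, and 2 in MDA-MB-231 replicate 2 and Hs578T replicate 1. Over the genome, these classes held 1917, 2789, 3384 and 1723 of 50576 merged regions. Regions called only in Hs578T replicate 2 numbered 0 in the loci and 2372 in the genome. The 20 peaks of locus regions not shared by all 3 were weak, with 2.29 to 3.88-fold enrichment and a median percentile of 9.09. The regions called only in both Hs578T lists lay in the CXCL locus (3 regions) and the LIF locus (1 region), and the highest percentile of their peaks was 34.3. Base by base, the Jaccard index (bases covered in both lists over those covered in either) was 0.806 between MDA-MB-231 replicate 2 and Hs578T replicate 1, 0.797 between MDA-MB-231 replicate 2 and Hs578T replicate 2, and 0.803 between the Hs578T replicates. By regions, the Hs578T replicates shared 64 of 70 (91.4%), whereas MDA-MB-231 replicate 2 shared 62 of 74 (83.8%) with Hs578T replicate 1 and 62 of 78 (79.5%) with Hs578T replicate 2. Within the loci, the Hs578T pair was thus the closest by regions and lay between the other pairs by bases. Genome-wide values for the pairs are not given here.

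The strongest regions away from canonical start sites of protein-coding genes were then read for motif matches. The one near LIF lies at the start site of ENSG00000225676. The IL11 locus was left out of this choice. Of 4 such regions, near CXCL2, LIF, IL1B and IL6, 300 bases are shown from each of the 3 that held a match, to show how the matches are spaced. Each stretch was selected, within the part covered in all 3 large lists, for the most matches to NF-κB and AP-1, so the presence of a match in it is not a finding. Sequences are from hg38 on the plus strand, with matches in capitals.
Region upstream of CXCL2, chr4:74109011-74109310, plus strand: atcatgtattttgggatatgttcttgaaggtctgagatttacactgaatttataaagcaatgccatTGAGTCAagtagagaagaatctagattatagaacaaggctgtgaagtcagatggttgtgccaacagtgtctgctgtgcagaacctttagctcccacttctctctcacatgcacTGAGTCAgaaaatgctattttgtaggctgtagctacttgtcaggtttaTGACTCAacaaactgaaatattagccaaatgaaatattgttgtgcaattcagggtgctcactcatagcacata
Region downstream of LIF, chr22:30205755-30206054, plus strand: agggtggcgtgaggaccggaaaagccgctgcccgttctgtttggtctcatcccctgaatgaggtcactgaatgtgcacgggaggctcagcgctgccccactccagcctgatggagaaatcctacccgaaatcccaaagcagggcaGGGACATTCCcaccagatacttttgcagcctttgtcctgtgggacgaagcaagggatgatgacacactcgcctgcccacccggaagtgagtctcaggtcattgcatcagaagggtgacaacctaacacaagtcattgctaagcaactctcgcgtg
Region between IL1A and IL1B, chr2:112811970-112812269, plus strand: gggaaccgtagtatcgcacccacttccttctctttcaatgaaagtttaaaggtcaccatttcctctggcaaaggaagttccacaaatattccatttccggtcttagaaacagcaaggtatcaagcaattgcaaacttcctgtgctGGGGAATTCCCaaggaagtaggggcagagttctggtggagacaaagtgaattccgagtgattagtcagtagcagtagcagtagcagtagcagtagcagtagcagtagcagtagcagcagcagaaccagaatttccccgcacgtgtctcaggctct

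The stretch near CXCL2 held 3 AP-1 matches, of 4 in the 6404 bp covered in all 3 large lists, which held no NF-κB match. The stretch near IL1B held 2 overlapping NF-κB matches, and the 2183 bp covered in all 3 lists held these and 1 AP-1 match. The stretch near LIF held 1 NF-κB match, and the 13526 bp covered there held 2 NF-κB and 4 AP-1 matches. The region upstream of IL6 held neither motif over the 2393 bp covered in all 3 lists. In the 59 shared regions of the loci, AP-1 matches were found in 37 (62.7%), at 0.369 per kb, against 53.1% and 0.346 per kb for the 37832 shared regions of the genome. NF-κB matches were found in 20 (33.9%), at 0.263 per kb, against 27.3% and 0.169 per kb. Per kb, NF-κB matches were more frequent than in the genome only in the IL11 (0.502) and LIF (0.325) loci, and less frequent in the CXCL (0.165), IL6 (0.151) and IL1 (0.103) loci. Of the 16 NF-κB matches of the IL11 locus, 6 lay in the region of the IL11 promoter. The region 1.8 kb upstream, which reaches the promoter window of TMEM190, held 5. The regions at the promoters of RPL28 and TMEM238, of KMT5C and of UBE2S held 3, 1 and 1. AP-1 matches numbered 0.588 per kb in the CXCL locus, 0.483 in IL1, 0.415 in IL6, 0.281 in LIF and 0.125 in IL11. No test was made of these shares, since regions of 1 locus are not independent and base composition was not matched.

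Other genes of the pathway were examined with the same rule. Of 51 other cytokine and chemokine genes, 13 (25.5%) were marked in all 3 large lists, below the 55.6% of all genes, and 37 in none. Of 11 other CXC and CX3C chemokine genes 0 were marked in any list, and of 13 other CC chemokine genes only CCL26, an eosinophil attractant, was marked, with 11.8, 10.3 and 10.3-fold enrichment. Of 27 other cytokine genes, 12 were marked in all 3. Their highest percentiles were those of CLCF1 (99.1, 97.7 and 96.9), CSF2 (97.1, 96.1 and 95.8) and CTF1 (93.4, 94.7 and 91.3). CLCF1 and CTF1 encode further cytokines of the IL-6 family, and CSF2 encodes GM-CSF. The lowest were IL19, IL23A and IL12A, whose mean percentiles were 10.2, 19.4 and 20.4. IL32 was marked in 2 of the 3 lists, at 3.63 and 3.92-fold, and not in Hs578T replicate 2.

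Receptors and signalling genes differed. Of 16 receptor genes 6 (37.5%) were marked in all 3 large lists, below the 55.6% of all genes. Among them were IL6ST, which encodes gp130 (20.3, 18.8 and 13.8-fold), OSMR (20.5, 16.6 and 13.7-fold) and LIFR (12.6, 9.84 and 8.33-fold). IL6R was lowest, with 5.05, 4.54 and 4.51-fold, below IL1RAP (7.48, 4.88 and 4.47-fold) and IL11RA (7.27, 5.84 and 5.82-fold) by mean percentile. IL1R1 was marked only in Hs578T replicate 2, at 2.77-fold, and CXCR1 and CXCR2, the receptors of CXCL8, were unmarked in every list. Of 14 genes of signalling and control, 13 (92.9%) were marked in all 3, that is all but CASP1, which encodes the protease that activates IL-1β. ZC3H12A, CEBPB and IRAK1 were highest, at mean percentiles 92.6, 91.2 and 87.2, and JAK1, MAPK14 and MYD88 lowest, at 45.1, 52.7 and 58.8. No set test was made, and these shares are descriptions of the lists.

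**Figure D5:**
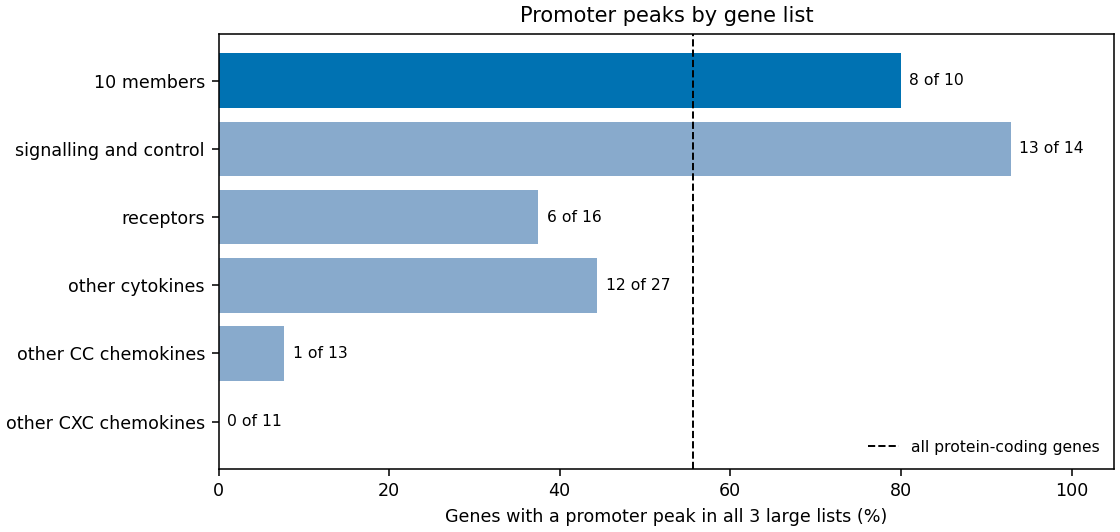
Share of genes with a promoter peak in all 3 large lists, in %, for the 10 members and for 5 lists of related genes, with the counts beside the bars. The dashed line is the share of all protein-coding genes (55.6%). The members and the signalling and control genes lie to the right of the line, and the other ligands and the receptors to its left.

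By percentiles of fold enrichment and width in the 3 large lists (6 values), each marked gene was set beside the nearest of the 13 other ligand genes marked in all 3. LIF lay closest to CLCF1 (Euclidean distance 4.99 percentile points) and CXCL2 to CTF1 (9.99). IL6 lay closest to CSF2 (17.7) and CXCL1 to IL19 (20). For IL11, CXCL8, CXCL3 and IL1B the nearest genes, CSF3, IL18, CSF3 and IL23A, were 29.5, 30.8, 32.8 and 37.8 points away. Of the 37 other protein-coding genes in the windows, 12 were marked in all 3 large lists and 24 in none. Of all protein-coding genes, 55.6% were marked in all 3.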

How the data were processed

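H3K27ac ChIP-seq peak lists of 4 libraries were used, with groups and replicate numbers from the sample titles. Per the study's methods and the submitters' processing notes, the authors trimmed reads with Trimmomatic, mapped them to hg38 with Bowtie2, called peaks per library with MACS2 after subtraction of input and removed blacklisted regions. Versions and settings are not given in the sources used here. Broad peak calling is inferred from the 9 columns. Every deposited peak has a score, a fold enrichment (a ratio over local background) and −log10 p and q-values, which served to rank, filter or describe it in its own list. Read numbers were not used here, so depth is unknown. The study's text gives a longer wash-off than the labels, which were followed.

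Genes were those of GENCODE release 44 (Ensembl canonical start sites) on chromosomes 1 to 22 and X. All 71 sequence names were found in the reference, and 0 peaks ran past a sequence end. Regions are peaks of the 3 large lists merged on overlap. Motifs were matched exactly on both strands. Counting and merging were tested on simulated peaks. Python 3.11.15, pandas 2.3.3, numpy 2.4.6, scipy 1.17.1, Biopython 1.88 and matplotlib 3.10.9 were used.

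Members and lists were chosen with earlier results of these data known. Of each related list, up to 3 genes with the highest and up to 3 with the lowest mean percentile among genes marked in all 3 large lists were named, with every gene marked in 1 or 2 of them, genes of the windows and the nearest gene of each member. CXCR1, CXCR2, CASP1, CDH5, VWF, CCL1 and TMEM132E fall outside this rule and were named after their values were seen. Alternatives were other promoter and locus windows, all basic start sites, the strongest 50% of each list by score, a q-value of at most 0.01, merging within 1 kb, an overlap of 50% of both peaks, the 20000 top peaks, and leaving out each replicate.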

Additional observations from a re-analysis of the deposited data

How the results depend on the processing

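The results were 6: the number of genes marked in every list of MDA-MB-231, of Hs578T and in the 3 large lists, the covered bases per line, and the share of regions called in all 3 large lists. Of 42 recomputed values, 34 stayed within 1.5 times a count, 1 SD of a mean or the 95% Wilson interval of the share (70.3 to 88.2%), and 8 moved. The SD of the MDA-MB-231 mean is so wide that staying within it says nothing of stability. The number of genes marked in every MDA-MB-231 list stayed at 0 wherever replicate 1 was kept. Since replicate 1 marked none of the genes, this too says nothing of stability. Keeping the strongest 50% of each list left 5 genes marked in both Hs578T lists and 5 in the 3 large lists (IL6, CXCL8, CXCL2, CXCL3 and LIF), with 40.8% of all genes marked in the 3 lists. At a q-value of at most 0.01 the IL1A peak and, in Hs578T replicate 2, the CXCL1 peak were lost. Windows of 500 and 2500 bp and all basic start sites left the counts as they were. For Hs578T, covered bases came to 140392 bp within 50 kb, 325162 bp within 250 kb and 139581 bp in the strongest 50% of peaks, by construction of fewer or more bases. An overlap of at least 50% of both peaks put 53.6% of 97 regions in all 3 lists. Leaving out each replicate in turn, the number of genes marked in every list was 0 to 9 for MDA-MB-231, 9 without replicate 1, and 8 in each case for Hs578T and for the 3 large lists. The covered bases were 0 to 174276 bp for MDA-MB-231 and 168681 to 182947 bp for Hs578T, and the shared regions were 79.5 to 91.4%, the highest without MDA-MB-231 replicate 2. Where values moved, any further cause was not tested. No paired analysis was possible because the results come from no test, and the replicate numbers mark no shared batch in the labels. Without read numbers, a weak region missing from a list may be unmarked or below its threshold.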
